A study of Homo sapiens with 4 samples.

Results

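The genes described are those of autophagy and of its branch that takes in the endoplasmic reticulum (ER), called ER-phagy. A list of 42 gene symbols was used, and a gene was taken when its symbol in the tables was the same as one on the list. Of the 42 symbols, 41 were found among the 25192 genes of the tables. The remaining symbol, ATG101, is carried in the tables under the older name C12orf44, whose values are given apart from the counts. All 41 members passed the filter on low counts and were among the 14099 genes tested.

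Autophagy is the route by which a cell wraps part of its cytoplasm in a double membrane and delivers it to the lysosome. A kinase complex (ULK) starts the process, a lipid kinase complex marks the membrane, and carrier proteins feed the growing phagophore. A pair of ubiquitin-like conjugation systems then ties proteins of the ATG8 family (LC3 and GABARAP) to the membrane lipid, and receptors tether cargo to them. Receptors of the ER membrane bring pieces of the ER into the same route, and transcription factors of the TFEB family control many of the lysosomal and autophagy genes. In cells with unfolded protein in the ER, the transcription factors ATF4 and CHOP (encoded by DDIT3) are known to act on several of these genes.

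RNA was sequenced from A549, a human lung adenocarcinoma cell line, infected with a retrovirus. The control cells received the empty virus (EV), which carries the vector pLZRS-IRES-GFP and makes only the green fluorescent protein. The other cells received the FCN3 virus, the same vector with the V5-tagged coding sequence of FCN3, a lectin of the complement system. RNA was taken at 48 h, and each group had 2 libraries, numbered 1 and 2. All 4 libraries share the host cell line, the medium (RPMI-1640) and the GFP reporter, and nothing in the sources says that infected cells were sorted or that the replicates came from separate cultures. The p-values therefore measure only the spread between these libraries, pooled in part across genes, and that spread may be technical. In such bulk RNA, a gene at a higher level in every cell and a gene switched on in part of the cells cannot be told apart.

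The libraries held between 16353554 and 35733735 expected counts, with the replicate 1 libraries deeper in both groups. The members were well covered, with a median of 777 to 1824 counts per member and library and a lowest count of 43. FCN3 was checked first. Its level in counts per 1000000 (CPM, scaled by the TMM method) was 0.0274 and 0 with EV, against 21297 and 22541 with its own virus. The references were 3 genes of the ER stress response. HSPA5, the main ER chaperone, was higher by 3.19 on the log2 scale (SE 0.12, adjusted p = 9.9e-04), DDIT3 by 4.35 (SE 0.12, adjusted p = 4.0e-04) and ATF4 by 0.61 (SE 0.09, adjusted p = 0.0255), all in edgeR's quasi-likelihood test with Benjamini-Hochberg adjustment. As to cell identity, the epithelial keratins KRT8 and KRT18 lay between 1612 and 2789 TPM (transcripts per 1000000, a level per transcript length). KRT19 was at 32.6 and 52.4 TPM under EV and 87.2 and 97.9 TPM in the FCN3 group, CDH1 at 3.35 to 9.53 and EPCAM at 1.09 to 3.65, while the alveolar markers SFTPA1, SFTPB, SFTPC and NKX2-1 were at most 0.06 TPM. The leukocyte, endothelial and fibroblast markers PTPRC, CD3E, PECAM1, VWF and DCN were at most 0.02 TPM, COL3A1 at most 0.41, CD14 at most 1.99 and COL1A1 at most 8.12.

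The question was whether the level of the autophagy and ER-phagy transcripts differed between cells given the FCN3 virus and cells given EV. In the edgeR test at a false discovery rate (FDR) of 0.01, WIPI1 and MAP1LC3B were called higher with the FCN3 virus, 2 of the 41 members, against 0.738% of all tested genes (0.965% in either direction). By the same test 0 members were called lower, against 0.227% of all tested genes. At an unadjusted p under 0.05 by edgeR, 13 members were higher and 0 lower, against 13.6% and 11.6% of all tested genes (25.1% in either direction), and DESeq2 called 5 higher and 0 lower, against 4.35% and 3.29% of all tested genes (7.64% in either direction). With an FDR of 0.05 in edgeR, CCPG1, ATG13, SQSTM1 and BECN1 joined the first pair, giving 6 members higher, against 4.43% of all tested genes. At that threshold 0 members were lower, against 2.77% of all tested genes (7.19% in either direction). With 2 libraries a group, an exact two-sided permutation test of a single gene cannot give a p below 0.333, so calls rest on the fit across all genes.

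The libraries can also be compared within each replicate number, as the pairing rule of the comparison asks. With the replicate number as a block in the edgeR fit, 16 members were called higher, 39% of the 41, against 19.1% of all tested genes. The same fit called 1 member lower, ATG16L1, which is 2.44% of the 41, against 17.1% of all tested genes. Standard errors are those of the fit without the block unless the block is named. The 16 were ULK1, ATG13, RB1CC1, BECN1, WIPI1, ATG12, MAP1LC3B, GABARAPL1, SQSTM1, NBR1, OPTN, CALCOCO2, TAX1BP1, FAM134B, CCPG1 and TFE3. Of these, 9 had a log2 fold change of at least 0.5 (WIPI1, GABARAPL1, CCPG1, MAP1LC3B, FAM134B, ATG13, SQSTM1, ULK1 and OPTN), a size that 8.84% of all tested genes reached upward and 6.33% downward in that fit, and 0 members were called lower at that size. DESeq2 with the block called 11 higher and 0 lower, against 8.12% and 7.89% of all tested genes, and did not call ULK1, RB1CC1, ATG12, FAM134B, TFE3 or ATG16L1.

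By sign alone, 27 members were higher and 14 lower, where 51.9% of all tested genes were higher. The median log2 fold change of the members was 0.16, against 0.02 over all tested genes, with a range from -0.54 (TFEB) to 2.59 (WIPI1). Of the 41 members, 25 lay within 0.25 of 0 on the log2 scale. Within replicate numbers, 25 members were higher in both pairs, 10 were lower in both and 6 had opposite signs. The matching shares of all tested genes were not taken, so these counts only describe the members. The groups did not overlap in 24 members, of which 17 were higher with the FCN3 virus and 7 lower. That is 58.5% of the members, against 54.5% of all tested genes, of which 28% were higher and 26.5% lower. The plot of log2 fold change by role sets these differences out gene by gene, with 1 receptor group wholly on the right of 0 and the phagophore genes other than WIPI1 on the left.

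**Figure D1:**
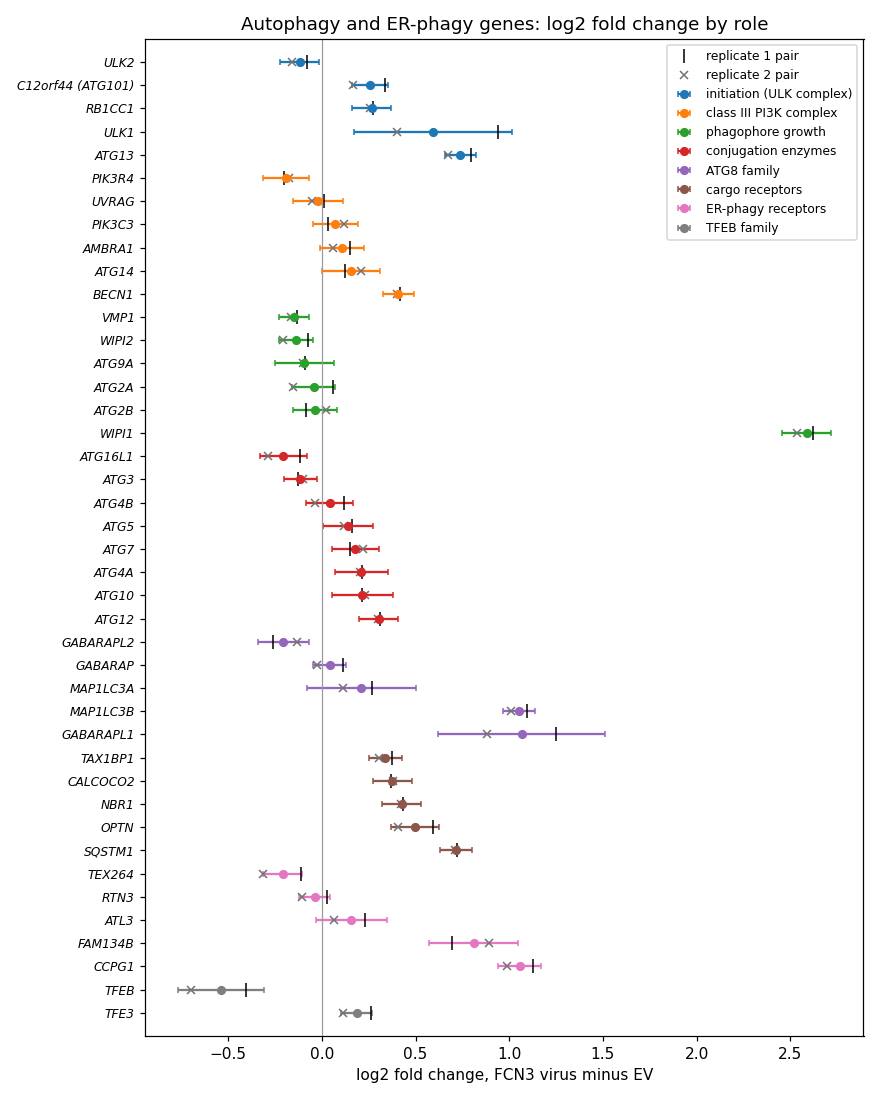
The log2 fold change (FCN3 virus minus EV) of each of the 41 members and of C12orf44 (ATG101) is plotted as a point with its standard error from edgeR, coloured by role; the vertical tick and the cross give the difference within replicate 1 and within replicate 2. WIPI1 stands alone at 2.59, CCPG1, MAP1LC3B and GABARAPL1 lie between 1.05 and 1.07, and the members with wide bars (ULK1, GABARAPL1) are those whose replicate numbers differ.

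Initiation rests on the kinases ULK1 and ULK2 and on their partners ATG13, ATG101 and RB1CC1 (FIP200), the scaffold of the complex. Of the 4 members found by symbol, 0 were called by edgeR without the block, against 0.965% of all tested genes. At an unadjusted p under 0.05 by edgeR, 2 were higher, against 13.6% of all tested genes. DESeq2 called 1 higher, against 4.35%. With the block edgeR called 3 higher and 0 lower, against 19.1% and 17.1% of all tested genes. The median log2 fold change of the 4 was 0.43. ATG13, the subunit that links the kinase to its scaffold, was measured at 65.8 and 67.4 CPM in the EV libraries and 114.4 and 107.6 CPM with the FCN3 virus. Both FCN3 libraries lay well above both EV libraries. The log2 fold change was 0.74 (SE 0.08), with an adjusted p of 0.0129 in edgeR, 1.2e-15 with the block and 4.4e-07 in DESeq2. ATG13 is at chromosome 11, 46639077 to 46696368 (GRCh37, plus strand).

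ULK1, the kinase itself, stood at 62.2 and 143.6 CPM in the EV libraries and 119.5 and 189.6 CPM with the FCN3 virus. The second EV library lay above the first FCN3 library, so the groups overlapped, while the FCN3 library was the higher in both replicate numbers. The difference was 0.94 within replicate 1 and 0.40 within replicate 2 on the log2 scale. Without the block the log2 fold change was 0.59 (SE 0.42, adjusted p = 0.444 in edgeR), and with it 0.67 (SE 0.07, adjusted p = 2.5e-12 in edgeR). With a library left out, the value was 0.11 without EV replicate 1, 0.22 without FCN3 replicate 2, 0.89 without FCN3 replicate 1 and 1.304 without EV replicate 2, and 0 of the 4 fits called the gene. RB1CC1 was higher by 0.27 with the block (SE 0.06, adjusted p = 2.0e-04 in edgeR) and was not called without it (adjusted p = 0.198 in edgeR). ULK2, the second kinase, had a log2 fold change of -0.12 and was not called in either fit. C12orf44, the ATG101 gene outside the counts, was at 57.9 and 58.4 CPM in the EV libraries and at 73.2 and 65.5 CPM with the FCN3 virus, a log2 fold change of 0.26 called with the block alone (adjusted p = 6.2e-04 in edgeR).

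The class III phosphatidylinositol 3-kinase complex makes the lipid that recruits the later factors. Among its 6 members, edgeR called 0 without the block, against 0.965% of all tested genes. BECN1 alone had an unadjusted p under 0.05 in edgeR, against 25.1% of all tested genes. DESeq2 called 0, against 7.64%. With the block edgeR called BECN1 alone, as higher, against 19.1% of all tested genes. The median log2 fold change of the 6 was 0.09. BECN1, the regulatory subunit Beclin 1, had levels of 74.9 and 77.6 CPM in the EV libraries and 99.9 and 102.5 CPM with the FCN3 virus. Its 4 values fell into 2 tight and separate pairs. This is a log2 fold change of 0.41 (SE 0.08), with an adjusted p of 0.0467 in edgeR and 4.3e-08 with the block. The other 5 ranged from -0.19 for PIK3R4, the scaffold of the lipid kinase, to 0.16 for ATG14, the subunit that places the complex at the ER. The catalytic subunit PIK3C3 had a log2 fold change of 0.07 in counts and -0.02 on the log2(TPM + 1) scale, and its groups overlapped.

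Growth of the phagophore needs lipid from the ATG2 proteins, the membrane carrier ATG9A, the ER protein VMP1 and the lipid-binding WIPI proteins. Within this group of 6, WIPI1 was called higher in every fit that was run and the other 5 had log2 fold changes between -0.15 and -0.04 with 0 calls. The median of the group was -0.07. Over all tested genes, edgeR called 0.738% higher without the block and 19.1% higher with it. WIPI1, a sensor of phosphatidylinositol 3-phosphate on the phagophore, stood at 6.81 and 6.51 CPM in the EV libraries and 42.2 and 38.1 CPM with the FCN3 virus. The groups were far apart, and the spread within each group was small beside the difference between them. The gene was 6.01-fold higher, a log2 fold change of 2.59 (SE 0.13), with an adjusted p of 0.0019 in edgeR, 2.0e-29 with the block and 2.7e-36 in DESeq2. The difference was 2.62 within replicate 1 and 2.53 within replicate 2, and the gene was called in 4 of 4 fits that left out 1 library. WIPI1 is at chromosome 17, 66417089 to 66453654 (GRCh37, minus strand).

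The upstream sequence of WIPI1 is shown because it was the member with the largest difference. It is the 150 bases before the RefSeq start, chr17:68457497-68457646 on the minus strand of GRCh38.p14, written 5′ to 3′ on the gene's strand. None of the motifs searched was in it, so no base is in capitals.
WIPI1: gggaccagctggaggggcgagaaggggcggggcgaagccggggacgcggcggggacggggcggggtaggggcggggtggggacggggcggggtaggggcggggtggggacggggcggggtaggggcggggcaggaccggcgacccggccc
The stretch consists largely of guanine-rich repeats. The motifs searched, on both strands, were CACGTG (an E-box, the core of the element that TFEB binds), TGATGNAA (core of the element that ATF4 and CHOP bind together), TGACGTCA (the cyclic AMP response element, CRE), TGACGTGG (the unfolded protein response element) and TGACNNNGC (the antioxidant response element, ARE).

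WIPI2, the paralogue of WIPI1 that recruits the conjugation machinery, was level or slightly lower. It had 59.7 and 64.6 CPM under EV, and 56.6 and 56.1 CPM after the FCN3 virus. The FCN3 libraries lay just below the EV libraries, with a log2 fold change of -0.14 (SE 0.09), and the gene was called neither without the block nor with it (adjusted p = 0.0701 in edgeR with the block). VMP1 had a log2 fold change of -0.15 and ATG9A one of -0.09. ATG2A (-0.04) and ATG2B (-0.04) changed sign in some of the fits that left out 1 library.

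The conjugation enzymes attach ATG12 to ATG5 and the ATG8 proteins to lipid. Of these 8 genes, 0 were called by edgeR without the block, against 0.965% of all tested genes. The values ranged from -0.21 to 0.30. At an unadjusted p under 0.05 by edgeR, 1 was higher and 0 lower, against 13.6% and 11.6% of all tested genes. DESeq2 called 0, against 7.64%. In edgeR with the block, 1 was called higher and 1 lower, against 19.1% and 17.1% of all tested genes. With the block ATG12, the ubiquitin-like modifier, was called higher (0.30, SE 0.06, adjusted p = 6.6e-05 in edgeR with the block). ATG16L1, the partner that sets the site of lipidation, was called lower in the same fit (-0.20, SE 0.06, adjusted p = 0.0063 in edgeR with the block). Its level was 68.4 and 83.5 CPM in the EV libraries and 63.1 and 68.4 CPM with the FCN3 virus, so that the first EV library and the second FCN3 library were almost level. The enzymes ATG7, ATG3 and ATG10, the proteases ATG4A and ATG4B, and ATG5 were called in neither fit.

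The ATG8 family holds the proteins that coat the membrane and bind the receptors. It was uneven, with MAP1LC3B and GABARAPL1 higher by more than 1 on the log2 scale. The other 3 members lay between -0.21 and 0.21 and were not called in either fit. By edgeR 1 of the 5 was called higher without the block, against 0.738% of all tested genes. With the block 2 of the 5 were called higher, against 19.1% of all tested genes. MAP1LC3B, which encodes LC3B, was at 61.7 and 61.4 CPM with EV, against 131.6 and 123.6 CPM with the FCN3 virus. The EV libraries were almost equal, and both FCN3 libraries lay far above them. The difference on the log2 scale was 1.05 (SE 0.08, a 2.07-fold difference), with an adjusted p of 0.0054 in edgeR and 1.0e-21 with the block. Without FCN3 replicate 1 the log2 fold change was 1.01 and the call was lost (adjusted p = 0.0179 in edgeR), while the other 3 fits with a library left out kept it. The near-identical MAP1LC3B2 had at most 7.43 expected counts in a library, and adding its counts left the log2 fold change at 1.05. MAP1LC3B is at chromosome 16, 87417559 to 87438385 (GRCh37, plus strand).

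GABARAPL1, a GABARAP paralogue, stood at 6.42 and 14.5 CPM in the EV libraries and 15.4 and 26.6 CPM with the FCN3 virus. No FCN3 library was below an EV library, but the second EV library came close to the first FCN3 library. DESeq2 with the block gave a log2 fold change of 1.06 (adjusted p = 5.3e-07 in DESeq2). In both edgeR fits the log2 fold change was 1.07, with a standard error of 0.44 without the block (adjusted p = 0.216) and 0.10 with it (adjusted p = 1.3e-12). As for ULK1, the SE with the block is partly borrowed from other genes. Within replicate 1 the difference was 1.25 and within replicate 2 it was 0.88 on the log2 scale. The value was 0.52 without EV replicate 1, 0.61 without FCN3 replicate 2, 1.40 without FCN3 replicate 1 and 1.68 without EV replicate 2, and 0 of 4 such fits called the gene. Its near-identical copy GABARAPL3 had 3 counts in FCN3 replicate 1 and 0 in the other libraries. GABARAPL1 is at chromosome 12, 10365057 to 10375727 (GRCh37, plus strand).

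The upstream sequences of these ATG8 genes are shown because each held 1 of the motifs searched. They are the 150 bases before the RefSeq starts, chr16:87392186-87392335 for MAP1LC3B and chr12:10212727-10212876 for GABARAPL1, both on the plus strand of GRCh38.p14. Capitals mark the ARE letters in MAP1LC3B and the CRE letters in GABARAPL1.
MAP1LC3B: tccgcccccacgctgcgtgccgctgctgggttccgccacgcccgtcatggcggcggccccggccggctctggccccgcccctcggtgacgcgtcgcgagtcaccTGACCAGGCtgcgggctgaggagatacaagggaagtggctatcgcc
GABARAPL1: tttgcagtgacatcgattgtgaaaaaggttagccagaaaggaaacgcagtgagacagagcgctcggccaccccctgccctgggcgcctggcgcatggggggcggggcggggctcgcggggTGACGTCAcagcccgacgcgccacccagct
The first CRE base of GABARAPL1 lies 30 bases before the start and the first ARE base of MAP1LC3B lies 46 bases before it. The plot of normalized levels shows these ATG8 genes beside the other members with the largest differences.

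**Figure D2:**
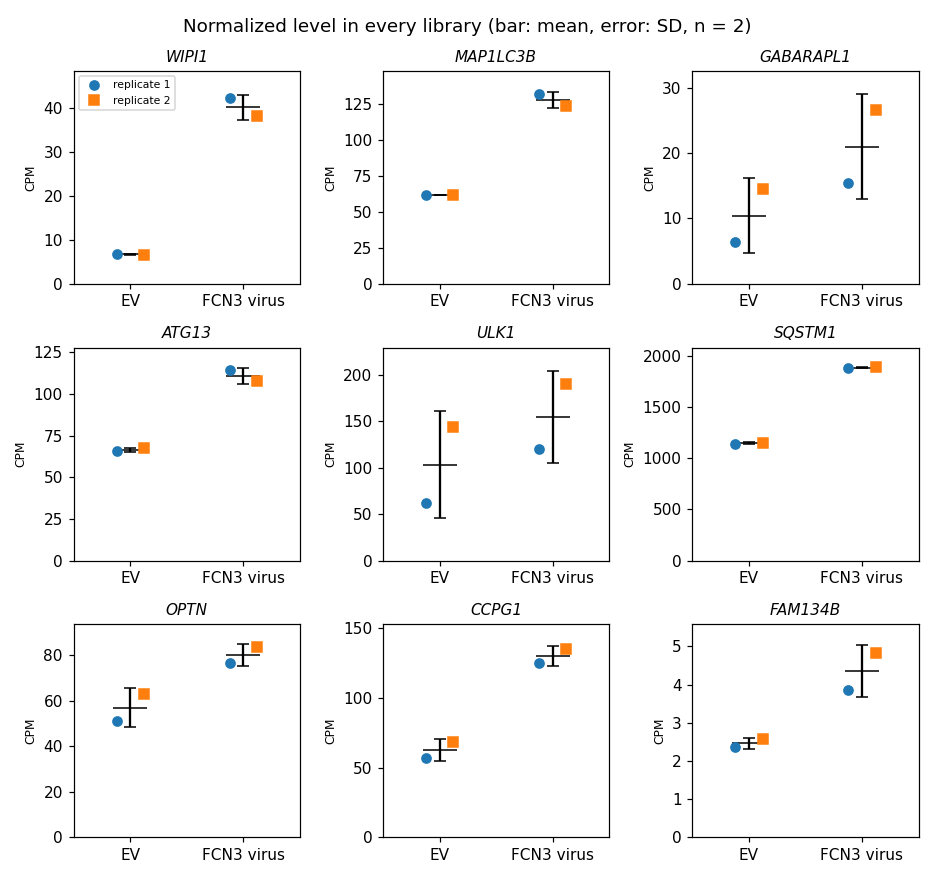
Each panel plots the TMM-normalized level in CPM of 1 member (vertical axis, starting at 0) in the EV and FCN3 virus groups, with circles for replicate 1, squares for replicate 2, and a bar and error for the mean and SD (n = 2). In WIPI1, MAP1LC3B, ATG13 and SQSTM1 the replicates nearly coincide, while in GABARAPL1 and ULK1 replicate 2 lies above replicate 1 in both groups.

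GABARAP itself, the most abundant of the family per length, had a log2 fold change of 0.04 in counts and -0.06 on the log2(TPM + 1) scale. GABARAPL2 had one of -0.21 and MAP1LC3A one of 0.21, the latter changing sign when EV replicate 1 or FCN3 replicate 2 was left out. In TPM, MAP1LC3B made up 11.4% and 10.7% of the family's transcripts under EV, and its share was 20.8% and 19.4% in the FCN3 group. GABARAP held 64.7% and 67.5% under EV, against 59.6% in each FCN3 library. The family's summed level was 479 ± 18.1 TPM in EV and 509 ± 7.55 TPM with the FCN3 virus (SD, n = 2), a ratio of 1.06. TPM is a share of a fixed total, of which FCN3 held 41618 and 44730 TPM in its own libraries. The ratio was not corrected for this.

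The cargo receptors bind ubiquitin on aggregates, microbes or organelles and hook them to ATG8 proteins. All 5 were higher with the FCN3 virus in every library of the group, as were 28% of all tested genes. Their log2 fold changes ran from 0.34 to 0.72, with a median of 0.43. By edgeR 0 of the 5 were called without the block, against 0.965% of all tested genes. All 5 were higher at an unadjusted p under 0.05 by edgeR, against 13.6% of all tested genes. DESeq2 called 1 higher, against 4.35%. With the block all 5 were called higher by edgeR and by DESeq2, against 19.1% and 8.12% of all tested genes. SQSTM1 (p62), the founding receptor of this kind, was counted at 1140 and 1154 CPM in the EV libraries and 1881 and 1889 CPM with the FCN3 virus. Each pair of libraries was within a narrow band and the bands were far apart. Its log2 fold change was 0.72 (SE 0.08, a 1.64-fold difference), with an adjusted p of 0.0141 in edgeR, 3.2e-18 with the block and 7.4e-11 in DESeq2. SQSTM1 is at chromosome 5, 179233398 to 179265078 (GRCh37, plus strand).

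OPTN, optineurin, a receptor for mitochondria and bacteria, had levels of 50.9 and 62.9 CPM in the EV libraries and 76.7 and 83.4 CPM with the FCN3 virus. The groups did not overlap, and replicate 2 was the higher library in both. The gene had a log2 fold change of 0.50 (SE 0.13), with an adjusted p of 0.0838 in edgeR and 1.6e-09 with the block. NBR1, which shares its domain order with p62, was higher by 0.43. CALCOCO2 (NDP52) was higher by 0.38 and its relative TAX1BP1 by 0.34. For these 3 the adjusted p in edgeR lay between 0.0722 and 0.0994 without the block and was at most 2.9e-07 with it.

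The ER-phagy receptors sit in the ER membrane and hold ATG8-binding motifs. They split, with CCPG1 and FAM134B called higher by edgeR with the block, against 19.1% of all tested genes. RTN3, TEX264 and ATL3 were not called in either fit. Without the block edgeR called 0 of the 5, against 0.965% of all tested genes. At an unadjusted p under 0.05 by edgeR, 2 were higher, against 13.6% of all tested genes. DESeq2 called CCPG1 higher, against 4.35%. CCPG1, a receptor for luminal ER cargo known to be induced in ER stress, was at 57.2 and 68.0 CPM in the EV libraries and 124.7 and 134.9 CPM with the FCN3 virus. Both FCN3 libraries lay far above either EV library. This gave a log2 fold change of 1.06 (SE 0.11, a 2.08-fold difference), with an adjusted p of 0.0120 in edgeR, 1.0e-21 with the block and 7.3e-11 in DESeq2. With a library left out, the log2 fold change of CCPG1 lay between 0.94 and 1.18. CCPG1 is at chromosome 15, 55632230 to 55700708 (GRCh37, minus strand).

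CCPG1 shares exons with a readthrough transcript, DYX1C1-CCPG1, which the tables list as its own gene. The readthrough had 167.6 and 48.1 expected counts in EV and 0.01 and 121.6 in the FCN3 group, so the estimate for the shared reads varied between replicates of a group. With the counts of both summed, the log2 fold change was 1.01, with an adjusted p of 0.0128 in edgeR and 6.4e-22 with the block.

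FAM134B (now RETREG1), the receptor that shapes and clears ER sheets, was the member with the lowest level per length. It was measured at 2.36 and 2.57 CPM in the EV libraries and 3.86 and 4.83 CPM with the FCN3 virus, from 43 to 131 counts a library. The groups did not overlap. On the log2 scale the gene was higher by 0.81 (SE 0.24), with an adjusted p of 0.110 in edgeR and 5.0e-04 with the block, but DESeq2 with the block did not call it (adjusted p = 0.121). The gene is at chromosome 5, 16473147 to 16617210 (GRCh37, minus strand). The tubule receptors RTN3 and ATL3 had log2 fold changes of -0.04 and 0.16, and TEX264 one of -0.21. RTN3 changed sign without EV replicate 2 and ATL3 without FCN3 replicate 1.

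Within the ER-phagy receptors, CCPG1 made up 9.71% and 11.1% of the summed TPM under EV, and 19.0% and 21.4% in the FCN3 group. RTN3 held the largest share in all 4 libraries, at 45.7% and 46.7% in EV and 40.7% and 42.0% with the FCN3 virus. FAM134B made up 0.586% to 1.10%. The summed level of the 5 receptors was 242 ± 6.40 TPM in EV and 246 ± 7.30 TPM with the FCN3 virus (SD, n = 2), a ratio of 1.02. This ratio, too, was not corrected for the share of TPM that FCN3 held in its own libraries.

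The 2 members of the TFEB family pointed opposite ways. Without the block edgeR called 0 of them, against 0.965% of all tested genes, and with it TFE3 alone, against 36.2%. An unadjusted p under 0.05 in edgeR was reached by 0 of them, against 25.1% of all tested genes. DESeq2 called 0, against 7.64%. TFEB, the regulator of lysosome genes, was at 3.92 and 5.02 CPM in the EV libraries and 2.95 and 3.07 CPM with the FCN3 virus. Both FCN3 libraries lay below both EV libraries. The log2 fold change was -0.54 (SE 0.23), not called without the block (adjusted p = 0.225 in edgeR) or with it (0.0128). TFE3, its relative, was higher by 0.19 with the block (SE 0.05, adjusted p = 0.0033 in edgeR) and was not called without it (adjusted p = 0.242 in edgeR). Per length TFE3 was the more abundant, at 76.3 to 84.0 TPM in the 4 libraries, where TFEB was at 2.45 to 4.52 TPM.

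Compared per length, the members spanned a wide range of levels. SQSTM1 was first in both groups, at 765 and 768 TPM in the EV libraries and 1160 and 1186 TPM with the FCN3 virus, which was 30.4% to 31.4% of the members' summed TPM in EV and 39.2% in each FCN3 library. GABARAP and VMP1 followed it in both groups. WIPI1 moved furthest in this order, from rank 38 of 41 in EV to rank 18 with the FCN3 virus, MAP1LC3B moved from 12 to 5 and CCPG1 from 21 to 15. ULK1 and GABARAPL1 cannot be placed finely, since their EV libraries ranged from 22.6 to 51.6 TPM and from 6.92 to 15.5 TPM. By role, the summed TPM of the cargo receptors was 988 ± 10.7 in EV and 1443 ± 26.3 with the FCN3 virus (SD, n = 2), a ratio of 1.46. SQSTM1 alone, with means of 766 TPM in EV and 1173 TPM with the FCN3 virus, made up most of both sums and of the rise. The ratio of 1.46 is therefore mainly that of 1 gene. The other 7 roles had ratios between 0.932 and 1.28. TPM is a share of a fixed total, of which FCN3 held 41618 and 44730 TPM in its own libraries and at most 0.06 in EV. The ratios were not corrected for this. The conjugation enzymes, with the ratio of 0.932, had a median log2 fold change of 0.16 in counts. In counts 6 of them were higher and 2 lower, namely ATG3 (-0.11) and ATG16L1 (-0.21). These 2 were the most abundant of the group per length, and a sum gives them more weight than a median does.

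**Figure D3:**
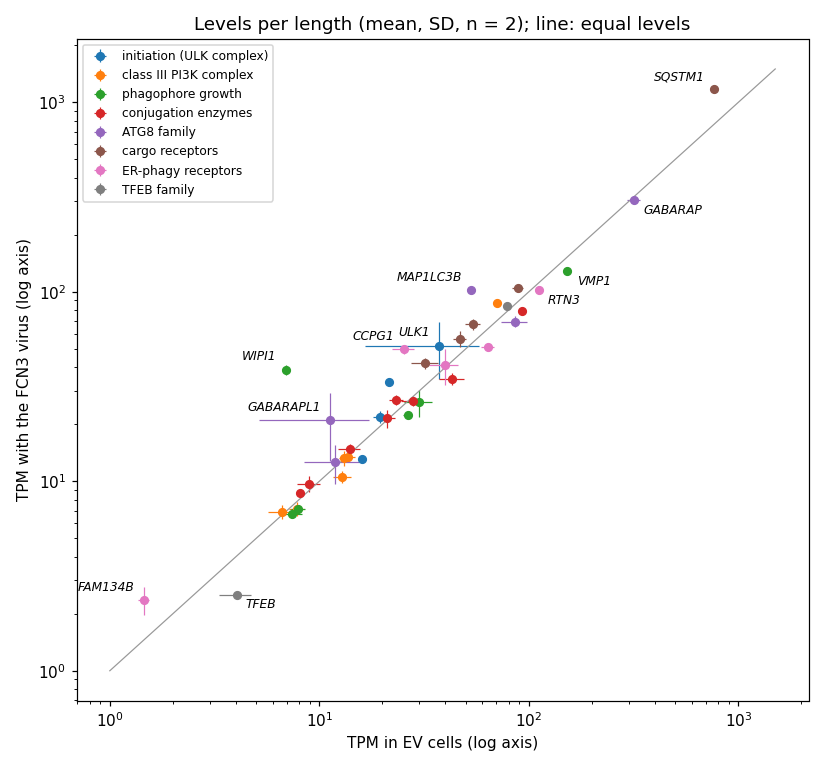
The mean level of each member with the FCN3 virus is plotted against its mean level in EV, both in TPM on log axes, with error bars for the SD (n = 2) and a line of equal levels; colours give the role. WIPI1 lies furthest above the line, MAP1LC3B, CCPG1 and SQSTM1 lie above it with bars within the symbols or little longer, and TFEB lies below it. TPM was not corrected for the share that FCN3 held in its own libraries.

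The 2 libraries of a group were not alike, and the members showed it. The difference of replicate 2 from replicate 1 within EV and the same difference within the FCN3 group had a Pearson correlation of 0.932 across the 41 members, as a description only, and had the same sign in 35 of them. The points share their libraries and are not independent. Over 8310 well expressed genes the correlation was 0.806, and the sign was the same in 6500 of them. In a fit with group and number, 7 members differed by number (ULK1, GABARAPL1, ATL3, ATG9A, MAP1LC3A, OPTN and ATG16L1), against 22.2% of all tested genes, and 4 of them were also called between the groups with the block (ULK1, GABARAPL1, OPTN and ATG16L1). For ULK1 the difference between numbers was 1.21 in EV and 0.67 with the FCN3 virus on the log2 scale, and for GABARAPL1 it was 1.16 and 0.79. What the number stands for is not given in the labels, and its part in the results was not tested beyond the block.

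**Figure D4:**
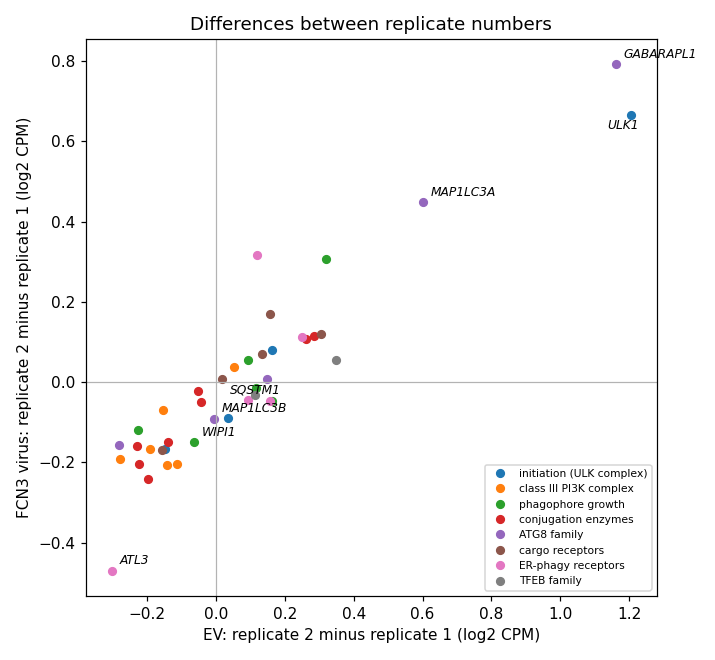
For each member the difference of replicate 2 minus replicate 1 in log2 CPM is plotted for the FCN3 virus group (vertical axis) against the EV group (horizontal axis), coloured by role. ULK1, GABARAPL1 and MAP1LC3A lie far to the upper right, ATL3 to the lower left, and WIPI1, MAP1LC3B and SQSTM1 close to 0 on both axes.

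RefSeq promoters (250 bases before to 50 after each start) were found for 38 of the 41 members, and 31 of these held none of the motifs. Some members have more than 1 promoter, and a member was counted when any of its promoters held the letters. The share over all promoters was taken per promoter, so the units of the shares differ. The E-box letters were in 2 members (ATG14 and ATG3), which is 5.26% of the 38, against 7.26% of all 35116 promoters in the table. The CRE letters were in 1 member (GABARAPL1), 2.63% against 1.85%, and the ARE letters in 4 members (CALCOCO2, FAM134B, MAP1LC3B and RTN3), 10.5% against 13.3%. The letters TGATGNAA and TGACGTGG were in 0 of the 38, against 3.62% and 0.729% of all promoters. A match is a description of letters in a window, not of a site in use.

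Some members have been placed downstream of ATF4 or CHOP in work on mouse fibroblasts short of an amino acid, which offers a grouping that the list did not use. Placed under ATF4 were 6 genes (MAP1LC3B, ATG3, ATG12, ATG16L1, BECN1 and GABARAPL2). Without the block edgeR called 1 of these higher and 0 lower, against 0.738% and 0.227% of all tested genes. With the block it called 3 higher and 1 lower, against 19.1% and 17.1% of all tested genes. DESeq2 called 1 higher, and 2 with the block, against 4.35% and 8.12%. In both DESeq2 fits 0 were called lower. The median log2 fold change of the 6 was 0.09. Of 3 placed under both factors, edgeR called 0 without the block, against 0.965% of all tested genes. With the block it called SQSTM1 and NBR1 higher, against 19.1% of all tested genes, but not ATG7. DESeq2 called 1 of the 3 higher, and 2 with the block. The median of the 3 was 0.43. Of 3 placed under CHOP alone (ATG5, ATG10 and GABARAP), 0 were called with or without the block, against 36.2% and 0.965% of all tested genes. An unadjusted p under 0.05 in edgeR was reached by 0 of the 3, against 25.1%. DESeq2 called 0, against 7.64%. The median of the 3 was 0.14. DDIT3 itself was higher by 4.35 on the log2 scale in the same libraries.

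Other autophagy genes outside the list were examined beside the members. Of 44 found by symbol, 41 were tested. Among these edgeR called 2 higher and 0 lower, against 0.738% and 0.227% of all tested genes. At an unadjusted p under 0.05 by edgeR, 13 were higher and 1 lower, against 13.6% and 11.6% of all tested genes. DESeq2 called 7 higher and 1 lower, against 4.35% and 3.29%. DESeq2 with the block called 9 higher and 1 lower, against 8.12% and 7.89%. TP53INP1, a stress protein that binds ATG8 proteins, was higher by 1.68 (SE 0.13, adjusted p = 0.0053 in edgeR). TMEM41B, an ER scramblase that works with VMP1, was higher by 1.13 (SE 0.11, adjusted p = 0.0099 in edgeR). With the block 18 were called higher, 43.9% against 19.1% of all tested genes, with BNIP3L, a mitochondrial receptor, next at 0.81. The block fit called 1 lower, 2.44% against 17.1% of all tested genes. It was the death-associated kinase DAPK1 (-0.54, adjusted p = 2.1e-10 in edgeR). The median of the 41 tested genes of this list was 0.14.

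Genes of the network that TFEB controls, called lysosome genes here, came last. The list also held the regulators FLCN, FNIP1, FNIP2, RRAGD, MITF and TFEC, which are not parts of the lysosome itself. Of 36 found by symbol, 35 were tested and edgeR called 0 of them, against 0.965% of all tested genes. At an unadjusted p under 0.05 by edgeR, 5 were higher and 1 lower, against 13.6% and 11.6% of all tested genes. DESeq2 called 1 higher and 0 lower, against 4.35% and 3.29%. DESeq2 with the block called 4 higher and 1 lower, against 8.12% and 7.89%. The median log2 fold change of the 35 was 0.05. With the block 8 were called higher, 22.9% against 19.1% of all tested genes, and 2 lower, 5.71% against 17.1%. The largest increases among the called genes were FNIP1 (0.48), a partner of folliculin, the sialidase NEU1 (0.42) and the membrane protein CD63 (0.40). The protease CTSF was among the genes called lower (-0.37). The plot of shares called sets the lists beside all tested genes.

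**Figure D5:**
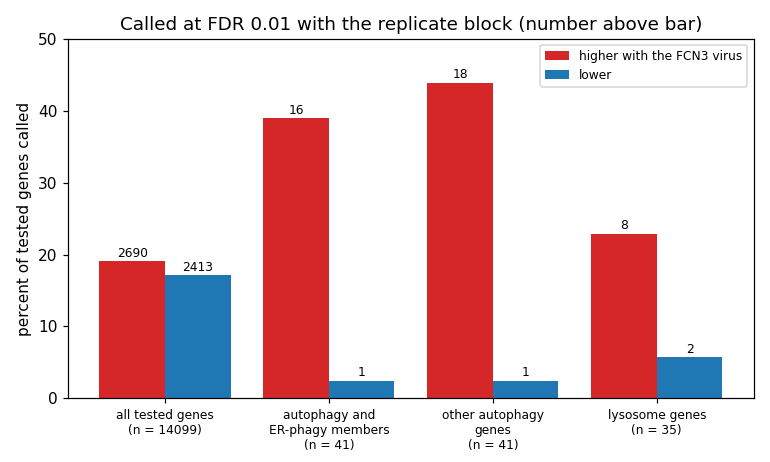
Bars give the percent of tested genes called higher (red) or lower (blue) with the FCN3 virus by edgeR with the replicate block at an FDR of 0.01, for all tested genes, the 41 members, other autophagy genes and lysosome genes, with the number of genes above each bar. The members (16 higher, 1 lower) and the other autophagy genes (18 higher, 1 lower) have taller red bars than all tested genes, and the lysosome genes (8 higher, 2 lower) a red bar of nearly the height of all tested genes.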

How the data were processed

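Total RNA of A549 cells was made into TruSeq stranded mRNA libraries, and paired-end reads were sequenced. After trimming by the authors, reads were aligned to hg19 with STAR 2.6.1d, and RSEM estimated abundance, splitting reads that match more than one gene. The authors deposited an expected count per gene (not normalized), TPM, FPKM and a mean and an effective transcript length for each of the 4 libraries. No FPKM value was used. Which annotation and strand setting RSEM was run with is not given in the sources used here, so genes that overlap others are uncertain.

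After rounding, expected counts were fitted with edgeR 4.0.16 in R 4.3.3 (TMM factors, filterByExpr, quasi-likelihood test, Benjamini-Hochberg adjustment over 14099 genes, FDR 0.01). The standard error (SE) is the size of the log2 fold change over the root of F. A count of 3 corresponds to 0.0823 to 0.179 CPM, which covers counting error only. The fit was also run on simulated counts with the same spread setting for every gene, which real genes do not share. That run checked the working of the code only, and no result rests on it. Groups and replicate numbers were read from the labels. Libraries of one number deviated from their group alike (Pearson r of 0.806 over 8310 genes with an average log2 CPM above 4), but the labels do not say what the number marks, so fits without and with the replicate block are both given. The alternatives were DESeq2 1.42.0, with and without the block, RLE factors, FCN3 left out, other filters, unrounded counts, a length offset, limma 3.58.1 on log2(TPM + 1), other thresholds, summed near-identical genes and each library left out. A block with a minimum log2 fold change of 1, and summed genes with the block, were chosen after seeing the data.

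Full values are given for members called by the test, or called with the block at a log2 fold change of 0.5 or more in size, and for the others that the ranges turn on. From the other lists, the genes called and the 3 largest in each direction among those called with the block are named. The result for 1 lysosome gene is not reported here. BECN1, WIPI2, ATG16L1 and TFEB were given full values after their results were seen. The members and lists were chosen with earlier results of these data known. Gene locations are from GENCODE on GRCh37, and promoter sequences and their coordinates from RefSeq on GRCh38.p14.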

Additional observations from a re-analysis of the deposited data

How the results depend on the processing

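Against 2 members called higher, the count was 5 in DESeq2, 11 in DESeq2 with the block, 6 at an FDR of 0.05 and 1 to 3 when single libraries were left out (1 without FCN3 replicate 1, 3 without EV replicate 2). The replicate block, which pairs libraries by number, gave 16, and 4 with a log2 fold change of at least 1. The share of all tested genes was not taken at that size or in the fits that left out a library. Nor was it taken for the settings below that left the count at 2. Those counts describe the members only. Members called lower were 0, and 1 with the block. The median log2 fold change of 0.16 became 0.056 on the log2(TPM + 1) scale, where the median of all genes was -0.07, and 0.091 to 0.22 when single libraries were left out. Other autophagy genes went from 2 called higher to 18 with the block and 7 in DESeq2, and from 0 lower to 1 with the block and 1 in DESeq2. Lysosome genes went from 0 higher to 8 with the block and 1 in DESeq2, and from 0 lower to 2 with the block. DESeq2 with the block called 9 other autophagy genes higher and 1 lower, and 4 lysosome genes higher and 1 lower. The cause of these shifts was not tested. RLE factors, FCN3 left out, both other filters, unrounded counts, a length offset and limma on TPM left the count of members called higher at 2. Of 594 alternative values for the members and C12orf44, 544 kept direction and side of the threshold, 31 passed it, 1 lost it (MAP1LC3B without FCN3 replicate 1) and 18 changed sign, all in genes not called. On the log2(TPM + 1) scale these were PIK3C3 (-0.024), ATG4B (-0.059) and GABARAP (-0.061). With 1 library left out, the values ran from -0.0057 to 0.17 for PIK3C3, -0.13 to 0.076 for UVRAG, -0.12 to 0.029 for ATG2A, -0.15 to 0.096 for ATG2B, -0.081 to 0.17 for ATG4B, -0.25 to 0.063 for ATG9A, -0.12 to 0.48 for MAP1LC3A, -0.021 to 0.11 for GABARAP, -0.076 to 0.00031 for RTN3 and -0.10 to 0.37 for ATL3. With 2 libraries a group, a lone library left in a group is assumed to vary like the other group. Without the block the standard error was largest for GABARAPL1 (0.44), ULK1 (0.42) and MAP1LC3A (0.29), whose replicates differ.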

Other observations

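The mean transcript length that RSEM gives each gene in each library is another readout of the same reads. In 19 of the 41 members it was the same in all 4 libraries. It differed by more than 1% between the group means in 2 members. For ULK2 it was 5088 and 5258 bases in the EV libraries and 5276 and 5493 bases with the FCN3 virus, which is 4.09% longer. For CCPG1 it was 4713 and 4675 bases in the EV libraries and 4573 and 4649 bases with the FCN3 virus, a difference of -1.77%. RTN3 and FAM134B, which have long and short forms, differed by -0.40% and 0.36%. No test was run on these lengths.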
